A study of Homo sapiens with 10 samples.

Results

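RARA, the retinoic acid receptor alpha, is described here beside its partners RXRA and RXRB, its paralog RARG and 6 further nuclear receptors, VDR, NR1H2, THRA, NR3C1, PPARD and NR2F6. These 10 genes were taken by symbol from the 21174 genes of the count table. RARA was selected on its measured level, which was lower in CREBBP+/- than in CREBBP+/+ libraries. The others were picked, with earlier results known, from the receptors detected in the same libraries, and 14 further tested receptors are described apart. The genotype comparison of these 10 genes is therefore a description without a test.

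The data are RNA sequencing counts from 10 libraries of the human cell line U2932, which was established from a diffuse large B cell lymphoma. By the labels 5 clones are CREBBP+/- and 5 are CREBBP+/+, grown in RPMI with fetal bovine serum. All clones share that 1 line, no added agent is labelled, and the labels do not say how the CREBBP copy was altered or how the clones were derived. The CREBBP+/+ columns, WT_1 to WT_5, match labelled clones by name, whereas the CREBBP+/- columns run from Het_6 to Het_10 and match theirs by genotype only.

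Nuclear receptors are transcription factors that bind small lipophilic ligands, or, for orphan members, have no agreed ligand. RARs, VDR, the liver X receptor NR1H2, the thyroid hormone receptor THRA and the fatty acid sensor PPARD bind DNA as heterodimers with an RXR, at repeats of a hexamer close to AGGTCA. NR3C1, the glucocorticoid receptor, works mainly as a homodimer. Without ligand RARs hold corepressors with histone deacetylases, and with ligand they recruit coactivators, among them the acetyltransferases CREBBP and EP300. Retinoic acid influences B cell maturation and antibody responses, and glucocorticoids, which kill many lymphoid cells, are part of lymphoma therapy.

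Levels are given in CPM, the reads of the gene per 1e+06 reads of the library, with TMM scaling. CREBBP itself had 71.4, 77.4, 56.8, 61.5 and 80.7 CPM in Het_6 to Het_10. In WT_1 to WT_5 it had 118.5, 103.4, 102.8, 114.7 and 135.9 CPM, so every CREBBP+/- library lay below every CREBBP+/+ library. That order goes with the labels, but an mRNA level does not establish the genotype of a library. Total counts ranged from 10615977 in Het_9 to 23020694 in Het_6, both CREBBP+/-, with all CREBBP+/+ libraries between them. Libraries fell into 3 clusters by their overall expression, computed without any nuclear receptor or CREBBP: Het_6 and Het_7 with WT_3, WT_4 and WT_5; Het_8 with WT_1 and WT_2; and Het_9 with Het_10. The cluster of Het_8, WT_1 and WT_2 had 128.4 to 141.1 CPM of MYC and 241.0 to 318.5 CPM of BCL6, against 26.5 to 52.3 CPM of MYC and 525.8 to 664.7 CPM of BCL6 elsewhere. All 6 B cell markers were detected, and their sum was 2029 to 3462 CPM in CREBBP+/- clones, against 1946 to 3441 CPM in CREBBP+/+ clones. Of 12 markers of other cells 9 were too low to be tested, 3 of them at 0 throughout (CD3D, NKG7 and HBB), and the summed level was 16.0 to 31.6 CPM in CREBBP+/- clones, against 3.55 to 26.4 CPM in CREBBP+/+ clones. EPCAM made up most of that sum in every library except WT_2, where it had 1.42 CPM, and its part in any result was not tested.

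RARA lies on the plus strand of chromosome 17 (ENSG00000131759, 40309180 to 40357643, GRCh38), and RefSeq gives it 3 starts. The windows from 250 bases before to 50 after each start (RefSeq, GRCh38.p14, plus strand) are shown because gene counts pool the transcripts of all 3, so the level below cannot be assigned to a start. Capitals mark the receptor hexamers on either strand at the first start, and the GC boxes (GGGCGG, on either strand) at the others.
RARA start 1, chr17:40308930-40309229: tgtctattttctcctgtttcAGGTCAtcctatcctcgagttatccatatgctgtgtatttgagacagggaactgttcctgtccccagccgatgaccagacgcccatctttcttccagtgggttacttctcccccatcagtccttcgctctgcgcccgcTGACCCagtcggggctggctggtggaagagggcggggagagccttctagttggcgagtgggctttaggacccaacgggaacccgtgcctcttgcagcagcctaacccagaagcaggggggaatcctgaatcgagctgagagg
RARA start 2, chr17:40317995-40318294: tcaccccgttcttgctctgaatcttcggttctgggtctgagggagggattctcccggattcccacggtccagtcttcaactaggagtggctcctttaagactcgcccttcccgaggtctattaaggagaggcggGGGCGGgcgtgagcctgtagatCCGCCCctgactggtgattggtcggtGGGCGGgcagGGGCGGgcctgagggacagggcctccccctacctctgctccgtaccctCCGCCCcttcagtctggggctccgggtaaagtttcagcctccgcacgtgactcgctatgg
RARA start 3, chr17:40341916-40342215: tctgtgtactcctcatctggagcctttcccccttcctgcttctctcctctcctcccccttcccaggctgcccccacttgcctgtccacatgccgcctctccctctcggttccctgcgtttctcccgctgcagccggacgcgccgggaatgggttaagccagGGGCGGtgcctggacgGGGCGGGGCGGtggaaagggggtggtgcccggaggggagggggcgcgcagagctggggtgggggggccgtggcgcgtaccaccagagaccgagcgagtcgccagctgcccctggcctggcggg
The first window holds 1 AGGTCA on the printed strand and 1 GGGTCA on the other strand, and the other windows hold no hexamer. The search covered 4 hexamers on both strands, AGGTCA (in 13.8% of all windows), GGGTCA (14.1%), AGTTCA (10.4%) and GGTTCA (8.62%), and 38.6% of the 35116 promoter windows of that length hold at least 1 of them. The GC box was found 1 time at the first start, 5 times at the second and 3 times at the third, where 2 copies overlap by 1 base, and 45.0% of all windows hold it. Of the 10 receptors 8 were matched to 18 RefSeq windows, and 5 of the 18 held a hexamer: 1 of RARA, 1 of RXRA and 3 of NR3C1. A match is only a run of letters in these windows.

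RARA mRNA was lower in each CREBBP+/- library than in each CREBBP+/+ library. In bulk RNA, fewer cells with the transcript and less of it per cell cannot be told apart. It had 28.5, 27.6, 30.8, 24.4 and 29.2 CPM in Het_6 to Het_10, against 43.2, 40.3, 37.1, 38.5 and 38.8 CPM in WT_1 to WT_5. The highest CREBBP+/- value, in Het_8, lay below the lowest CREBBP+/+ value, in WT_3. Means were 28.1 ± 2.38 CPM in CREBBP+/- clones and 39.6 ± 2.31 CPM in CREBBP+/+ clones (SD, n = 5 each), 1.41-fold lower in CREBBP+/-, with a log2 fold change of -0.49 (SE 0.09, 95% confidence interval -0.69 to -0.30). These are the values by which RARA was chosen. The counts behind them ranged from 266 reads in Het_9 to 823 in WT_3. Among the 10 receptors RARA was the only gene whose groups did not overlap. Over all genes tested, every CREBBP+/- library was lower for 0.594% and the groups were apart in either direction for 1.02%, and nothing is read from the comparison, since the choice used it. RARA shares 556 exonic bases with RARA-AS1 on the other strand, which was not analysed here.

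RARG, the paralog that also binds retinoic acid, was present at a low level (ENSG00000172819, chromosome 12, 53210567 to 53232980). It had 2.39, 1.98, 3.21, 1.65 and 0.745 CPM in Het_6 to Het_10 and 2.96, 3.60, 2.48, 1.26 and 1.67 CPM in WT_1 to WT_5. The groups overlapped, with Het_8, WT_1 and WT_2 highest. RARB, the third RAR, had 0 counts in every library. Per kilobase of exon, RARA made up 91.2 to 97.7% of RARA plus RARG in CREBBP+/- and 92.4 to 97.0% in CREBBP+/+ libraries.

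**Figure D1:**
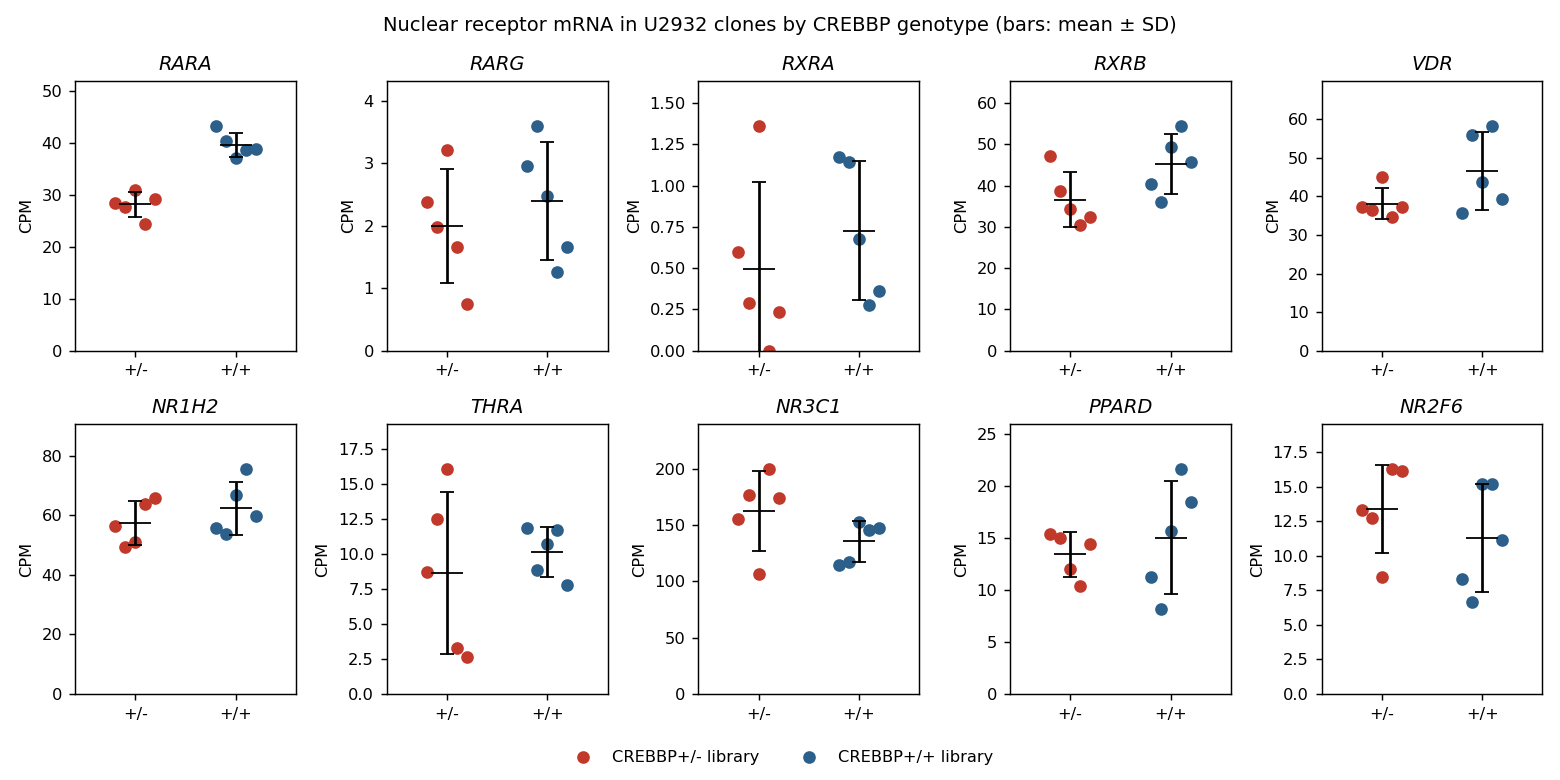
CPM of the 10 receptors (y axis, a separate scale from 0 in each panel) in 5 CREBBP+/- and 5 CREBBP+/+ libraries. Points are libraries and bars are the mean ± SD. RARA is the panel without overlap, at 24.4 to 30.8 CPM in CREBBP+/- clones and 37.1 to 43.2 CPM in CREBBP+/+ clones.

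Of the RXRs, the obligate partners, RXRB carried nearly all of the signal. RXRB (ENSG00000204231, chromosome 6, 33193588 to 33200665) had 47.2, 38.6, 34.3, 30.4 and 32.4 CPM in Het_6 to Het_10 and 40.5, 36.1, 49.3, 54.5 and 45.7 CPM in WT_1 to WT_5. Het_8, Het_9 and Het_10 lay below all CREBBP+/+ libraries, and Het_6 and Het_7 lay within their range. The log2 fold change was -0.31 (SE 0.15, interval -0.63 to 0.02). RXRB shares 361 exonic bases with SLC39A7 on the other strand, and the use of strand in counting is not given in the sources used here. SLC39A7 had a mean of 76.8 ± 2.48 CPM in CREBBP+/- clones, against 78.0 ± 8.74 CPM in CREBBP+/+ clones (SD, n = 5 each).

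RXRA, the main RXR of liver and skin, was close to the limit of detection (ENSG00000186350, chromosome 9, 134317098 to 134440585). It had 0.598, 0.289, 1.36, 0 and 0.233 CPM in Het_6 to Het_10, which are 14, 6, 25, 0 and 5 reads, and 1.17, 1.146, 0.677, 0.275 and 0.365 CPM in WT_1 to WT_5, which are 19, 21, 15, 5 and 7 reads. The count of 0 in Het_9 allows up to 0.276 CPM (3 counts, counting error only). The groups overlapped, and the interval of the log2 fold change ran from -2.13 to 1.12. RXRG had 0 counts in every library. Per kilobase, RXRB was 99.6 ± 0.492% of RXRA plus RXRB in CREBBP+/- and 99.4 ± 0.386% in CREBBP+/+ libraries (SD, n = 5 each). The ratio of RARA to that RXR sum, also per kilobase, was 0.642 ± 0.103 in CREBBP+/- and 0.734 ± 0.148 in CREBBP+/+ libraries (SD, n = 5 each). The groups overlapped: WT_1 and WT_2 had 0.869 and 0.908, above every CREBBP+/- library, and WT_3, WT_4 and WT_5 had 0.615, 0.580 and 0.695, inside the CREBBP+/- range.

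The other RXR partners overlapped between genotypes. VDR, the vitamin D receptor (ENSG00000111424, chromosome 12, 47841537 to 47943048), had 37.2, 36.5, 45.0, 34.7 and 37.3 CPM in Het_6 to Het_10 and 35.8, 55.9, 43.8, 58.2 and 39.3 CPM in WT_1 to WT_5. Its CREBBP+/- libraries were close together and its CREBBP+/+ libraries spread, with WT_2 and WT_4 high (log2 fold change -0.29, SE 0.15). NR1H2, the liver X receptor beta that responds to oxysterols (ENSG00000131408, chromosome 19, 50329653 to 50383388), lay between 49.4 and 66.0 CPM in CREBBP+/- clones (median 56.5) and between 53.6 and 75.5 CPM in CREBBP+/+ clones (median 59.8). Its log2 fold change was -0.12 (SE 0.12), and it shares 1182 exonic bases with NAPSA on the other strand. NAPSA, at 6.48 ± 4.05 CPM in CREBBP+/- clones and 9.53 ± 3.04 CPM in CREBBP+/+ clones (SD, n = 5 each), was far below it. PPARD (ENSG00000112033, chromosome 6, 35342558 to 35428191) lay between 10.4 and 15.4 CPM in CREBBP+/- clones (median 14.4) and between 8.13 and 21.6 CPM in CREBBP+/+ clones (median 15.7), so all CREBBP+/- values lay inside the CREBBP+/+ range.

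THRA, which encodes thyroid hormone receptor alpha (ENSG00000126351, chromosome 17, 40058290 to 40093867), spread widely among CREBBP+/- libraries. It had 8.75, 12.5, 16.1, 3.31 and 2.61 CPM in Het_6 to Het_10 and 11.8, 8.84, 10.7, 11.7 and 7.81 CPM in WT_1 to WT_5. Het_9 and Het_10 were below, and Het_7 and Het_8 above, all CREBBP+/+ libraries. THRA shares 473 exonic bases with NR1D1, a circadian repressor on the opposite strand, whose reads could be mixed with it. NR1D1 had 5.97 and 5.82 CPM in Het_9 and Het_10, inside its CREBBP+/+ range of 5.18 to 8.62 CPM.

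NR3C1 and NR2F6 had higher means in CREBBP+/- than in CREBBP+/+ libraries, with overlap. NR3C1 (ENSG00000113580, chromosome 5, 143277931 to 143435512) had 155.3, 176.9, 106.0, 199.4 and 174.0 CPM in Het_6 to Het_10 and 114.3, 117.3, 152.3, 145.5 and 147.1 CPM in WT_1 to WT_5. Het_8 was the lowest of all libraries and the other 4 CREBBP+/- libraries were above all CREBBP+/+ libraries (log2 fold change 0.26, SE 0.16). NR2F6, an orphan receptor that restrains lymphocyte cytokine genes in T cells (ENSG00000160113, chromosome 19, 17231883 to 17245919), had 13.3, 12.7, 8.44, 16.3 and 16.2 CPM in Het_6 to Het_10 and 8.32, 6.66, 15.2, 15.2 and 11.1 CPM in WT_1 to WT_5 (0.24, SE 0.26). Het_8, WT_1 and WT_2 were lowest for both genes. NR2F6 shares 221 exonic bases with ENSG00000269095 on the same strand, which was below 4 CPM in every library.

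Of these 10 receptors 8 had a log2 fold change below 0, with a median of -0.24. Over all 11961 genes tested, 52.4% were below 0 and the median was -0.01. The 8 include RARA, which was chosen for being lower. The 14 tested receptors outside the 10 went the other way, with 3 below 0, 11 above 0 and a median of 0.15. The count of 8 therefore describes the chosen genes and not nuclear receptors in general. With library clusters as a covariate, or without Het_9 and Het_10, 5 of 10 were below 0, as RARG, RXRA and THRA were then above 0. RARA and RXRA were the furthest below 0 (-0.49 and -0.50), and RARA had the narrowest interval of the 10.

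**Figure D2:**
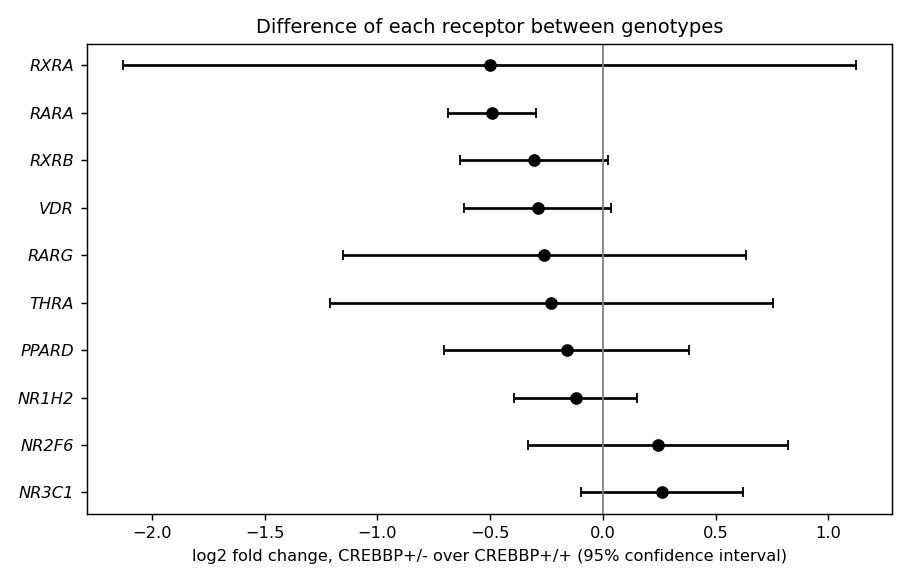
Log2 fold change, CREBBP+/- over CREBBP+/+ (x axis), of each receptor, with its 95% confidence interval from the edgeR fit. RARA sits at -0.49 with a narrow interval, and RXRA at -0.50 with an interval from -2.13 to 1.12.

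RARA was lower in CREBBP+/- libraries within each library cluster that held both genotypes, by about the same amount. This direction follows from its choice and from groups that do not overlap, so nothing is read from it. The other receptors, except VDR, had a larger share of variance between clusters than between genotypes, as given below. For RARA the difference in log2 CPM was -0.44 for Het_6 and Het_7 against WT_3 to WT_5, and -0.44 for Het_8 against WT_1 and WT_2. Het_9 and Het_10 have no CREBBP+/+ library in their cluster, and their RARA values of 24.4 and 29.2 CPM were near those of the other CREBBP+/- libraries. For RXRB the within-cluster differences were -0.22 and -0.16. They were -0.33 and 0.01 for VDR, -0.34 and -0.10 for NR1H2, 0.16 and -0.13 for NR3C1, -0.28 and 0.32 for PPARD and 0.08 and 0.65 for THRA, in the same order. For RARG they were 0.31 and -0.02, for RXRA 0.02 and 0.22 and for NR2F6 -0.07 and 0.18, so that at least 1 of each pair had the opposite sign to the difference over all libraries. These comparisons rest on clusters with 1 to 3 libraries a side and no test.

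Between genotypes lay 87.2% of the variance of RARA over the 10 libraries, on the log2 CPM scale, against 1.45 to 33.9% for the other 9 receptors and a median of 6.03% over all genes tested. RARA was chosen by its genotype difference, so a high share was built in and nothing is read from that contrast. Between clusters lay 42.4% for RARA, with VDR (19.5%) and NR1H2 (32.0%) lower. The remaining receptors ran from 68.2% for PPARD to 88.1% for THRA, 88.6% for NR2F6 and 89.7% for NR3C1. The median was 63.5% over all genes tested. Clusters and genotypes are not independent, since Het_9 and Het_10 form a cluster of their own, and both shares are descriptions.

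**Figure D3:**
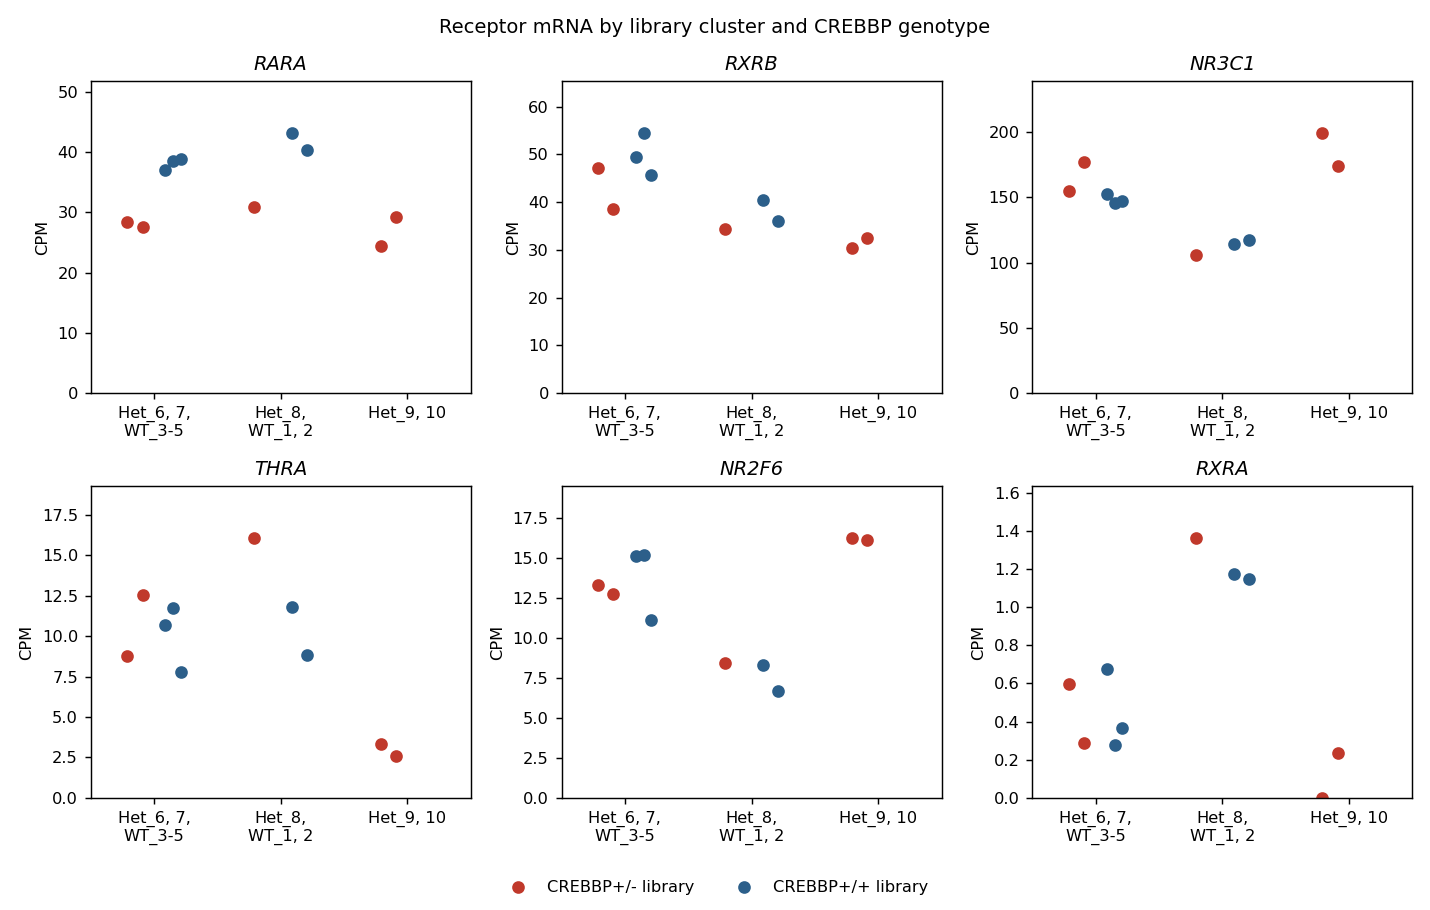
CPM of 6 receptors (y axes from 0) by library cluster (x axis) and genotype, with a point for each library. RARA, chosen for being lower, is lower in CREBBP+/- libraries inside each of the 2 mixed clusters. NR3C1, NR2F6, THRA and RXRA differ mainly between clusters. NR3C1 is at 106.0 to 117.3 CPM in Het_8, WT_1 and WT_2 and 145.5 to 199.4 CPM elsewhere.

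Scaled to the length of annotated exons, NR3C1 was the most abundant of the 10 receptors and RXRA the least. In CREBBP+/- libraries the order was NR3C1 (17.7 CPM per kilobase), NR1H2 (10.7), RXRB (9.38), VDR (6.72), RARA (5.93), NR2F6 (5.04), PPARD (3.01), THRA (1.18), RARG (0.389) and RXRA (0.0411). In CREBBP+/+ libraries it was NR3C1 (14.8), NR1H2 (11.7), RXRB (11.6), RARA (8.35), VDR (8.21), NR2F6 (4.25), PPARD (3.37), THRA (1.39), RARG (0.467) and RXRA (0.0602). NR1H2 and RXRB were not ordered beyond their spread in either genotype, since NR1H2 was the higher in 3 of 5 libraries each. VDR was above RARA in 5 of 5 CREBBP+/- libraries, and RARA above VDR in 3 of 5 CREBBP+/+ libraries. With the longest annotated transcript as the length, RARA stood above VDR in both genotypes, at 8.59 against 8.01 CPM per kilobase in CREBBP+/- and 12.1 against 9.78 in CREBBP+/+ libraries.

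**Figure D4:**
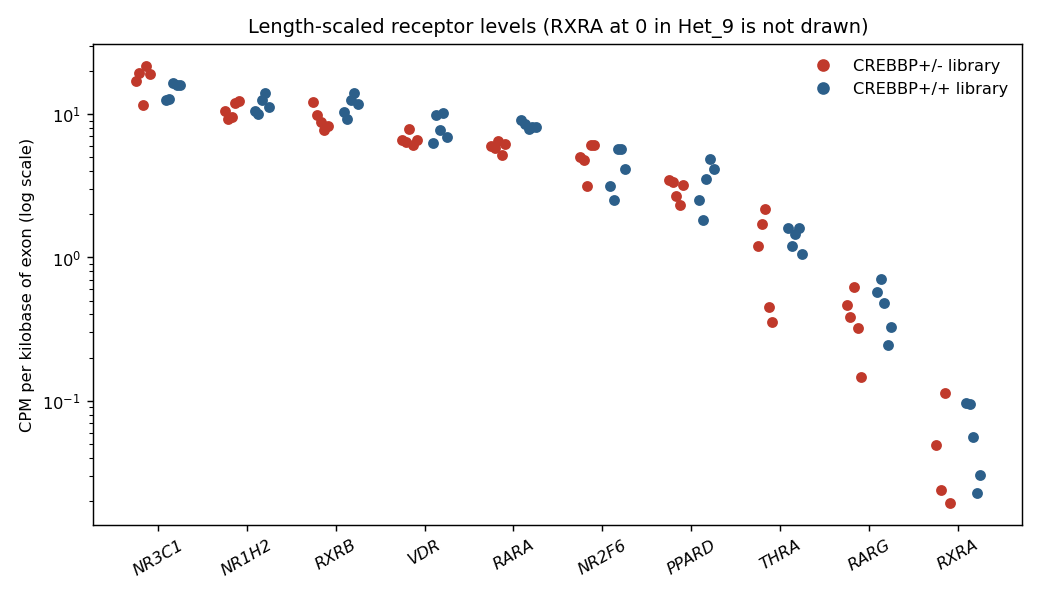
CPM per kilobase of exon (y axis, log scale) of each receptor in CREBBP+/- and CREBBP+/+ libraries, ordered by the CREBBP+/- mean, with a point for each library. Levels run from 17.7 for NR3C1 to 0.0411 for RXRA in the CREBBP+/- means, and the RXRA value of 0 in Het_9 is not drawn.

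Of all 48 human nuclear receptors, 24 had enough counts to be tested, 13 had 0 counts in every library and 11 had at most 86 reads in all. Among the 14 tested receptors outside the 10, edgeR called 0 at an adjusted p under 0.05, as it did for all 11961 genes (0.0%). Limma-voom and DESeq2 also called 0 of the 14. EdgeR did not call CREBBP either, whose groups did not overlap (log2 fold change -0.73, SE 0.12, edgeR adjusted p = 0.395). DESeq2 called CREBBP (DESeq2 adjusted p = 1.05e-04). A count of 0 in edgeR therefore does not show that genes were unchanged. At an unadjusted p under 0.05, which 4.98% of all genes reached, 1 of the 14 was higher in CREBBP+/- libraries, where 2.38% of all genes were, and 0 were lower (2.6%). That gene was NR4A1, an immediate early orphan receptor of activated lymphocytes. It had 87.5, 75.3, 175.0, 132.8 and 161.6 CPM in Het_6 to Het_10 and 56.5, 68.7, 89.1, 86.1 and 61.3 CPM in WT_1 to WT_5 (log2 fold change 0.80, SE 0.24, edgeR adjusted p = 0.842). Het_8, Het_9 and Het_10 were above all CREBBP+/+ libraries, and Het_6 and Het_7 were among them. Its relative NR4A3 had a log2 fold change of 0.68 (SE 0.38), NR6A1 0.36 (SE 0.31) and PPARA 0.18 (SE 0.12). The orphan receptors NR2C1 (0.13, SE 0.12), NR2C2 (0.01, SE 0.11) and ESRRA (0.06, SE 0.16) and the estrogen receptor ESR2 (0.22, SE 0.25) were also well detected. The 14 had a median of 0.15, with 11 above 0 and 3 below 0, where 52.4% of all genes tested were below 0.

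Genes that make, carry or break down retinoic acid were mostly too low to be tested. Of 24 listed, 14 were too low to be tested, among them the synthesising enzymes ALDH1A1, ALDH1A2 and ALDH1A3, the clearing enzymes CYP26A1, CYP26B1 and CYP26C1, and the uptake receptor STRA6. None of the 10 tested genes was called by edgeR, limma-voom or DESeq2, and 0 had an unadjusted p under 0.05 (median log2 fold change 0.05). Smallest in p were the retinal reductases DHRS4 (0.43, SE 0.21) and RDH11 (0.30, SE 0.15), the fatty acid and retinoic acid carrier FABP5 (0.23, SE 0.13) and the saturase RETSAT (0.15, SE 0.11).

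The coactivators and corepressors through which receptors act were nearly all expressed, 20 of 22. EdgeR, limma-voom and DESeq2 called 0 of them. At an unadjusted p under 0.05, 2 of the 20 were lower in CREBBP+/- libraries, where 2.6% of all genes tested were. The median was -0.03, and 12 of 20 were below 0, where 52.4% of all genes tested were. PELP1, a scaffold of steroid receptors, had means of 118.3 ± 9.55 CPM in CREBBP+/- clones and 136.4 ± 7.90 CPM in CREBBP+/+ clones (SD, n = 5 each; log2 fold change -0.21, SE 0.08). It was lower in 4 of 5 CREBBP+/- libraries than in all CREBBP+/+ libraries, and its edgeR adjusted p was 0.977. The arginine methyltransferase CARM1 had -0.29 (SE 0.21) and NCOA4 0.13 (SE 0.10).

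Response genes of the receptors showed no call in edgeR, limma-voom or DESeq2, and 0 of the tested genes had an unadjusted p under 0.05. Of 14 retinoic acid response genes 4 were tested (median -0.05), with ASB2 at -0.28 (SE 0.38). The classical targets CYP26A1, DHRS3 and RARB were too low. Of 9 liver X receptor targets 7 were tested (median 0.01), with APOE at 0.59 (SE 0.51) and LPCAT3 at 0.10 (SE 0.14). Of 9 glucocorticoid response genes 8 were tested (median -0.05), with KLF9 at -0.70 (SE 0.38) and TSC22D3, which encodes GILZ, at 0.68 (SE 0.63). Of 8 fatty acid receptor targets 5 were tested (median -0.02), with ACADVL at -0.11 (SE 0.08) and PLIN2 at 0.32 (SE 0.23). Of 5 vitamin D response genes 4 were tested (median -0.15), with CAMP at -0.73 (SE 0.55) and FBP1 at -0.32 (SE 0.48). Single libraries moved these values: FBP1 had -0.02 without WT_5, CAMP -0.33 without WT_4 and KLF9 -0.34 without WT_2. FBP1 was called by DESeq2 when clusters were a covariate, an alternative chosen after seeing the data (log2 fold change -0.64, DESeq2 adjusted p = 0.0419), and by no other fit run (adjusted p = 0.274 to 1.00).

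RARA, chosen for being lower, had a log2 fold change further below 0 than each tested gene next to it. Nothing is read from that order, since the choice used the RARA value. Within 250 kb, 10 protein-coding genes were tested, THRA among them. EdgeR, limma-voom and DESeq2 called 0 of the 10, with 0 at an unadjusted p under 0.05. The log2 fold changes of the 10 were -0.38 to 0.09 (median -0.13). The lowest had an SE of 0.50 and an interval of -1.50 to 0.73, which includes the RARA value. Of them 8 were below 0, where 52.4% of all genes tested were. CDC6, a replication licensing factor, had 0.09 (SE 0.07), MSL1 -0.16 (SE 0.14), WIPF2 -0.16 (SE 0.14) and CASC3 0.07 (SE 0.08). RXRB lies in the class II region of the MHC on chromosome 6, where 23 neighbours were tested and 6 were lower in CREBBP+/- libraries at an unadjusted p under 0.05, where 2.6% of all genes tested were. The 4 with the smallest p were HLA-DPB1 (-1.17, SE 0.17), HLA-DPA1 (-0.79, SE 0.18), HLA-DMA (-0.63, SE 0.15) and HLA-DOA (-0.58, SE 0.15), all on 1 side of RXRB, and edgeR called 0 (adjusted p = 0.355 to 0.842). DESeq2 called HLA-DPB1, HLA-DPA1 and HLA-DMA, where it called 0.266% of the genes it tested. HLA-DPA1 and HLA-DPB1 overlap on opposite strands, so their reads may be mixed. On the other side RGL2 (-0.43, SE 0.19) was also among the 6, and the genes nearest to RXRB had values that included SLC39A7 at -0.02 (SE 0.09), HSD17B8 at -0.27 (SE 0.13) and RING1 at -0.16 (SE 0.14).

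**Figure D5:**
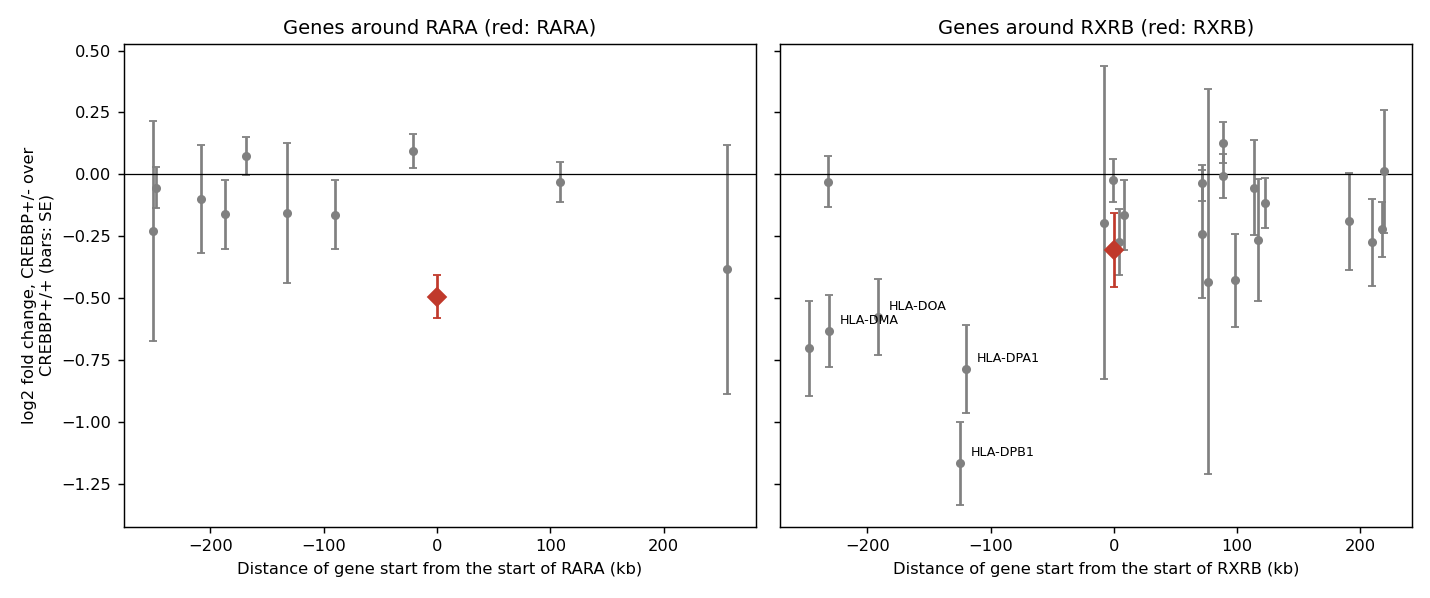
Log2 fold change, CREBBP+/- over CREBBP+/+ (y axis, bars are SE), of tested protein-coding genes around RARA and RXRB, against the distance of their start from the start of RARA or RXRB in kilobases (x axis). RARA, in red at -0.49, was chosen for being lower and stands below its neighbours. RXRB, in red at -0.31, has HLA genes at -0.58 to -1.17 on 1 side. On its other side are genes both nearer to 0 and further below 0, such as RGL2 at -0.43.

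The genes most like RARA over the 10 libraries, by Pearson correlation of log2 CPM among all genes tested and as a description only, were CIITA (r = 0.93), EMD (0.92), ERGIC1 (0.91), CDT1 (0.91) and ACD (0.91), each lower in all CREBBP+/- libraries. They share the genotype difference with RARA by this way of choosing. CIITA, the activator of MHC class II genes, had a mean of 91.3 CPM in CREBBP+/- clones, against 179.9 CPM in CREBBP+/+ clones. CREBBP stood at 0.86 (rank 34), RXRA at 0.61, VDR and RXRB at 0.52, and NR3C1 at -0.67. After the genotype means were taken out, the most alike were GBF1 (0.97), SOCS7 (0.94), ZNF335 (0.93), C5orf63 (0.93) and MECR (0.91), while CREBBP stood at 0.09, RXRA at 0.83 and NR3C1 at -0.83. Libraries fall into clusters and RXRA has few reads, so these coefficients carry no p.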

How the data were processed

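RNA of 10 libraries was sequenced. The deposited table holds raw counts of reads for each Ensembl gene and library, in which values from 10000 upward carry only 4 significant digits. Per the submitters' processing notes, FastQC, STAR, featureCounts, DESeq2 and GRCh38 were used, without versions. Counting options and strand use are also unstated. Symbols were matched for 20804 of 21174 identifiers, and positions and exon lengths come from the GENCODE annotation of GRCh38.

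CREBBP+/- libraries were compared with CREBBP+/+ libraries with edgeR 4.0.16 (R 4.3.3), quasi-likelihood test, with TMM factors and filterByExpr (minimum count 10, minimum total 15), which kept 11961 genes and removed 9213. Benjamini-Hochberg adjusted p under 0.05, two-sided, over all genes tested was the threshold. Standard errors come from the F statistics. CPM are scaled to 1e+06 counts, and log2 CPM use a prior count of 2. Library clusters come from average linkage, without CREBBP and the nuclear receptors. Fits were tested on simulated data. Alternatives were DESeq2 1.42.0, limma-voom (limma 3.58.1), other size factors and filters, clusters as a covariate and libraries left out.

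Members and gene lists were chosen with earlier results of these data known. Named genes are the 10 receptors, CREBBP, the 6 most abundant and 4 smallest-p other receptors, up to 4 genes of smallest p per list and around RARA or RXRB, and the 5 genes most like RARA by each correlation. Some genes that this rule selects are not reported here. Naming at most 2 genes of each response list, and 3 further neighbours of RXRB, was decided after their values were seen. Separate culture of the clones is not labelled, and p-values then cover only the spread among these libraries, which may be technical.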

Additional observations from a re-analysis of the deposited data

Results flagged for a closer look

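Among the named genes, Het_8 stood far from the remaining CREBBP+/- clones on the log2 CPM scale 5 times, judged by the distance to its closest neighbour relative to the whole range. In all, 106 sets of 5 clones were examined, and chance alone flags about 1 in 20 of them, or 5. Het_8 was highest for VDR (log2 CPM 5.50, next 5.22) and for CARM1 (7.44, next 6.79). It was lowest for RDH11 (5.24, next 5.89), PLIN2 (4.22, next 5.10) and HLA-DOA (5.18, next 5.60). RARA was not among them. The rate of 1 in 20 takes the 5 clones of a set as alike, whereas Het_8 is the only CREBBP+/- library in its cluster. In CPM, Het_8 was near WT_1 and WT_2 of that cluster for CARM1 (173.1 against 193.4 and 174.7) and RDH11 (37.8 against 40.4 and 40.4). PLIN2 had 18.6 against 19.3 and 25.4, and VDR lay between the 2 libraries. HLA-DOA was far below them (36.2 against 89.2 and 81.0). The part of the cluster in these flags was not tested.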

How the results depend on the processing

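No paired analysis was possible because the CREBBP+/- columns carry numbers that no labelled clone has. EdgeR called 1 gene without Het_6 and 0 under each other alternative run in edgeR or limma-voom. DESeq2 called 34. Among alternatives chosen after seeing the data, DESeq2 called 195 with clusters as a covariate and 7 without Het_9 and Het_10. Leaving out 1 library gave 0 to 120 over both tools. In DESeq2 it gave 36 without Het_6, 40 without Het_7, 120 without Het_8, 12 without Het_9 and 15 without Het_10. Without WT_1 to WT_5 in turn it gave 14, 29, 109, 18 and 19. In the lists, the calls were NR4A1 among the other receptors (1 gene, DESeq2 without Het_7, so 0 to 1 leaving out 1 library), RDH11 in retinoid handling (1 gene, DESeq2 without Het_8, 0 to 1) and FBP1 among vitamin D response genes (1 gene, DESeq2 with clusters).

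Over all alternatives the log2 fold change of RARA stayed between -0.53 and -0.44, of RXRB between -0.41 and -0.17 and of VDR between -0.37 and -0.20. NR1H2 lay between -0.26 and -0.04, NR3C1 between 0.06 and 0.38 and NR2F6 between 0.00 and 0.38, NR3C1 and NR2F6 lowest with clusters as a covariate, while RARG (-0.50 to 0.16), RXRA (-1.30 to 0.11), THRA (-0.57 to 0.29) and PPARD (-0.32 to 0.01) crossed 0. For tested genes 26 of 989 values changed sign, with no call, 40 passed the threshold that edgeR on all libraries did not, and the cause was not tested. ESR2 had -0.11 without Het_9 and Het_10 (-0.10 in DESeq2) and -0.14 with clusters as a covariate in both tools. MSL1 had 0.0360 without Het_9 and Het_10 (0.0362 in DESeq2) and 0.0405 with clusters (0.0445 in DESeq2), and TSC22D3 had -0.0218 without Het_9 and Het_10 (-0.0163 in DESeq2). Leaving out 1 library gave -0.484 to 0.0167 for ASB2, -0.0429 to 0.157 for ESRRA and -0.0761 to 0.0626 for NR2C2. By Spearman correlation, 0 of the 5 genes most like RARA were shared with the Pearson list. Depth limits RXRA most, with 0 to 25 reads a library.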
